A study of Mus musculus with 58 samples.

Results

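The response to traumatic brain injury (TBI) was examined in mice of a single genotype, E4/Abca1+/+, which carry human APOE4 in place of the mouse Apoe gene and both copies of Abca1. The mice were chosen by their labels alone, 7 TBI and 7 sham mice, 14 of the 58 in the series, which also holds mice with human APOE3 and mice with 1 copy of Abca1. All 14 were homozygous for APOE4 by targeted replacement, on the C57BL/6 background and 3 months old at surgery. TBI mice had a craniotomy of 4.5 mm over the left parietal cortex and a controlled cortical impact of 1.0 mm depth, given with a tip of 3.0 mm at 3 m/s. Sham mice had the craniotomy without the impact, so the comparison is with operated and not with intact animals. Tissue was taken on day 14, when hippocampus and cortex from a coronal slice of 1.5 mm were frozen together, and 1 library was made per mouse. In such bulk tissue, fewer cells of a type and less RNA per cell cannot be told apart, and sham mice carried human APOE4 as the injured mice did. Values are given as counts per 1000000 counts of a library (CPM), scaled by edgeR's TMM factors, as the lowest, the median and the highest of the 7 mice of a group. TBI 1 to 4 and Sham 1 to 4 are males, and TBI 5 to 7 and Sham 5 to 7 are females.

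A contusion of the cortex kills neurons at the site and sets off a response of the surrounding glia. Microglia, the resident macrophages of the brain, multiply, move to the lesion, take up debris and express receptors and enzymes that they hardly express at rest. Astrocytes enlarge, make intermediate filaments and form a border around the damaged tissue, while leukocytes from the blood, fibroblasts and vessel cells may take part in the repair.

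More genes were higher than lower after TBI, and the higher ones changed by larger amounts. Of 14041 genes tested, 1238 (8.82%) were higher and 684 (4.87%) lower, 1922 (13.7%) in all, at an adjusted p (Benjamini-Hochberg) under 0.05 in edgeR's quasi-likelihood test. The higher genes had a median log2 fold change of 0.62, and 331 of them changed by 1 or more on the log2 scale. The lower genes had a median of −0.28, and 4 of them fell by at least that much, while the median of all genes tested was −0.00. In 491 genes (3.50%) every TBI mouse was above every sham mouse, and in 132 genes (0.940%) every TBI mouse was below. The number of lower genes was 433 without Sham 1, 433 without Sham 3 and 1033 without TBI 4, and 1041 with sex as a covariate. The number of genes with every TBI mouse below every sham mouse was 215 without Sham 2, 209 without TBI 2 and 369 without TBI 4. That condition is easier to meet with 1 mouse fewer, so these counts could hardly fall.

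**Figure D1:**
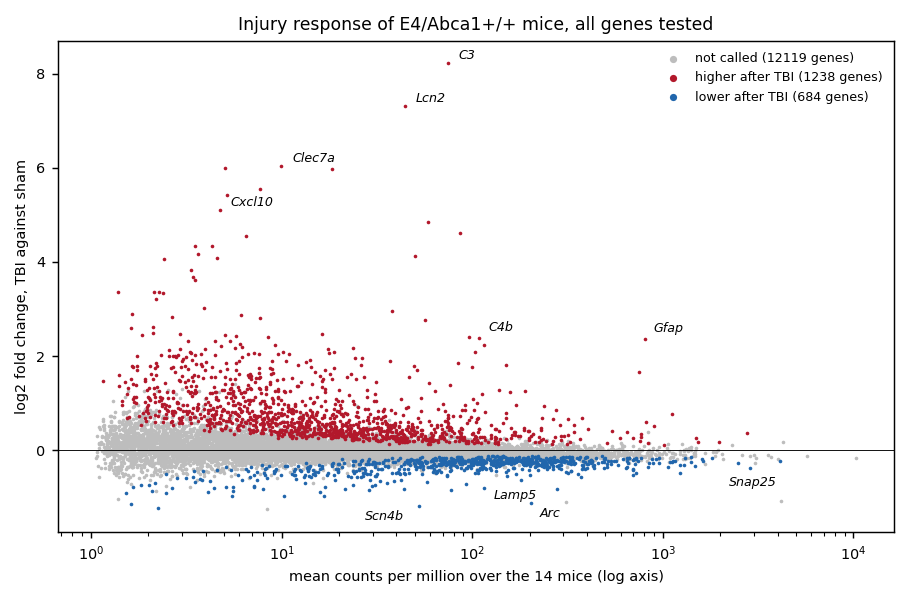
Log2 fold change of TBI against sham (vertical axis) against mean CPM over the 14 mice (horizontal log axis) for each of the 14041 genes tested; red points are the 1238 higher genes, blue points the 684 lower genes and grey points the rest. The higher genes reach a log2 fold change of 8.22 (C3), while the lower ones stay near 0, with Scn4b at −1.17.

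The injured mice did not respond to the same degree. Over the 1238 higher genes, the mean rise above the sham mean in log2(CPM + 1) was 1.16 in TBI 6 and 0.94 in TBI 7, both females, and 0.39 in TBI 4, a male, with the other TBI mice between 0.53 and 0.63. Over the 684 lower genes, the mean difference was −0.44 in TBI 6, −0.42 in TBI 7 and −0.19 in TBI 4, and the other TBI mice lay between −0.34 and −0.25. Sham mice lay between −0.08 and 0.06 over the higher genes and between −0.06 and 0.08 over the lower. These means describe genes that were chosen for their change in the same mice and serve only to rank the mice.

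Total counts per mouse ran from 4695676 to 14939612 and fell into a class under and a class over 8000000, with mice of both injury groups in each. A count of 3, taken as the floor, was 0.201 CPM at the highest total and 0.639 CPM at the lowest. Summed CPM of 9 choroid plexus genes was 924 in Sham 5, 1076 in Sham 7, 662 in TBI 5 and 1816 in TBI 6, all females, and 12.5 to 38.8 in the other 10 mice. Without these 4 mice, which left 5 per group, 751 genes were higher and 189 lower. Sham 6 and TBI 7 were the only females left, and TBI 6, the mouse with the largest mean rise, was left out. Choroid plexus, sex, TBI 6 and the number of mice cannot be told apart in this fit. The part of choroid plexus in the results was not tested beyond such counts. In the libraries over 8000000 counts 339 genes were higher and 38 lower, and in those under it 293 and 129, in fits with fewer mice. Genes of hippocampal subfields and of cortical layers, the tissues taken, were present in all 14 mice, at 536 to 664 and 606 to 937 summed CPM.

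Genes of homeostatic microglia rose together. Of 14 genes tested in this list, 11 were higher and 0 lower after TBI, with a median log2 fold change of 0.70. Csf1r, the receptor that microglia need to survive, had 92.1, 122 and 124 CPM in sham mice and 182, 217 and 285 CPM in TBI mice. Its log2 fold change was 0.96 ± 0.10 (SE, edgeR, adjusted p = 2.31e-05), and the groups were apart, as they were for Cx3cr1, the fractalkine receptor, which rose by 0.96 ± 0.10. Olfml3, a secreted microglial protein, rose by 1.21 ± 0.16, also with no overlap. Spi1, a gene outside this list that encodes the myeloid transcription factor PU.1, had 1.50, 1.86 and 2.49 CPM in sham mice and 5.06, 6.57 and 8.42 CPM in TBI mice. Its log2 fold change was 1.77 ± 0.16 (edgeR, adjusted p = 1.05e-05).

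Genes of disease-associated microglia, a state seen around plaques and lesions, had a higher median than the homeostatic ones. Of 22 genes tested 19 rose and 0 fell, the median log2 fold change was 1.46, and in 18 genes every TBI mouse was above every sham mouse. Trem2, a lipid receptor whose variants alter the risk of Alzheimer's disease, had 9.06, 9.54 and 11.2 CPM in sham mice and 21.6, 35.0 and 66.4 CPM in TBI mice. Its log2 fold change was 1.96 ± 0.21 (edgeR, adjusted p = 2.31e-05), with TBI 6 the highest injured mouse and TBI 4 the lowest. Clec7a, the beta-glucan receptor Dectin-1, was near the floor in sham mice, at 0, 0.215 and 0.597 CPM, and had 9.49, 11.4 and 52.0 CPM in TBI mice. TBI 6 and TBI 7 (31.6 CPM) were far above the other 5 injured mice, which lay at 9.49 to 11.9 CPM, and the log2 fold change was 6.04 ± 0.61 (edgeR, adjusted p = 2.31e-05). Itgax, the integrin CD11c, rose by 4.16 ± 0.39, also from near the floor, and Cd68, a lysosomal protein of phagocytes, by 2.17 ± 0.28. Lag3, a gene of none of the lists that encodes an inhibitory receptor best known from T cells, was among the 10 genes with the smallest p-values. It had 4.53, 7.09 and 11.2 CPM in sham mice and 20.0, 30.7 and 40.8 CPM in TBI mice, a log2 fold change of 2.09 ± 0.19 (edgeR, adjusted p = 1.05e-05), with the groups apart.

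Border and infiltrating macrophages share many genes with microglia, and of 15 in their list 7 were tested and 5 were higher. Stab1, a scavenger receptor, rose by 1.28 ± 0.21, and F13a1, a coagulation factor subunit that border macrophages express, had 1.68, 2.68 and 3.22 CPM in sham mice and 2.71, 4.21 and 8.04 CPM in TBI mice, which overlapped (log2 fold change 0.98 ± 0.25), and its call was lost in a single fit over the 58 mice (edgeR, adjusted p = 0.105). Summed CPM of the list ran from 106 to 141 in sham mice and from 216 to 593 in TBI mice, highest in TBI 6. Vim and Fn1, which astrocytes, fibroblasts or vessel cells also express, gave 83.3 to 117 CPM of this sum in sham mice and 177 to 461 CPM in TBI mice, and the other genes of the list gave 22.4 to 31.9 and 39.5 to 133 CPM.

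Receptors of the innate immune system rose on a similar scale. All 8 genes of the Fc receptor list, which bind antibody or signal from it, were higher (median 1.54). Fcgr3, an activating receptor, had 11.3, 12.5 and 13.9 CPM in sham mice and 26.8, 32.0 and 58.9 CPM in TBI mice, a log2 fold change of 1.51 ± 0.16 (edgeR, adjusted p = 2.31e-05). Fcgr2b, the inhibitory receptor of the family, rose by 2.04 ± 0.27 and Fcgr1, the high-affinity one, by 1.56 ± 0.18. Of 16 Toll-like receptor genes and adaptors tested, of 21 in the list, 13 were higher and 0 lower (median 1.54). Tlr2, which binds bacterial lipopeptides, had 0.671, 1.59 and 2.08 CPM in sham mice and 5.46, 7.14 and 26.6 CPM in TBI mice, a log2 fold change of 2.87 ± 0.39 (edgeR, adjusted p = 0.000135). Unc93b1, which carries the nucleic acid sensing receptors to the endosome, rose by 1.57 ± 0.16. All 7 genes tested of the phagocyte NADPH oxidase, which makes superoxide, were higher (median 1.85). Cybb, its catalytic subunit, had 0.168, 0.298 and 0.740 CPM in sham mice and 2.57, 3.92 and 22.3 CPM in TBI mice, a log2 fold change of 4.34 ± 0.62 (edgeR, adjusted p = 0.000206). Its partner Cyba rose by 1.89 ± 0.29, Rac2, the GTPase that activates the complex, by 1.85 ± 0.25 and Hvcn1, a proton channel that balances its charge, by 0.85 ± 0.13.

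Most complement genes rose, with the early classical components and C3 foremost. Of 21 genes tested 14 were higher and 0 lower, with a median log2 fold change of 1.09. C1qa, a chain of the recognition protein C1q, had 35.9, 38.1 and 43.6 CPM in sham mice and 95.5, 152 and 330.2 CPM in TBI mice, a log2 fold change of 2.09 ± 0.22 (edgeR, adjusted p = 2.31e-05). C4b, which the activated C1 complex cleaves, had the smallest p-value of all genes tested. It had 28.5, 32.3 and 45.7 CPM in sham mice and 119, 160 and 284 CPM in TBI mice, a log2 fold change of 2.39 ± 0.17 (edgeR, adjusted p = 1.04e-06). TBI 4 was the lowest injured mouse and TBI 6 and TBI 7 (238 CPM) the highest, and the other 4 lay close together, at 159.5 to 163 CPM. C3, the component on which the pathways converge, had the largest log2 fold change of the called genes, 8.22 ± 0.96 (edgeR, adjusted p = 4.81e-05). Its sham mice had 0.199 to 0.860 CPM, 5 TBI mice 34.3 to 72.4 CPM, TBI 7 325 and TBI 6 472 CPM. Clu, which encodes the chaperone clusterin, an inhibitor of the terminal complex, rose by 0.78 ± 0.08, from 805 to 860.5 CPM in sham mice to 1122 to 1792 CPM in TBI mice.

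Interferon-stimulated genes, which cells switch on when interferons bind their receptors, rose almost without exception. Of 42 genes in the list 35 were tested, and 34 were higher and 0 lower, with a median log2 fold change of 1.58, and in 24 every TBI mouse was above every sham mouse. The promoters of these genes were searched for the interferon-stimulated response element, a motif that STAT and IRF proteins bind, as the letters GAAA, any 2 bases and GAAA again, on both strands of the RefSeq promoters of GRCm38.p6 (250 bases before to 50 after the start). Of the 26 tested genes of the list with a promoter in the table, 15 (57.7%) held the letters, against 386 of 10937 genes tested (3.53%), 8.57% of those higher and 3.98% of those lower after TBI. The 250 bases before the start are shown for Gbp2, Ifit3 and Bst2. Among the members of the list with a match in these bases, they had the smallest p-values of edgeR's test. The chemokine Cxcl10, which is outside the list, was added. Every match is in capitals on the strand of the gene (the reverse strand reads as TTTC, 2 bases and TTTC). A match is a description of the letters and not of a bound site. Across the other lists searched, the share with these letters ran from 0% (homeostatic microglia) to 28.6% (4 of 14 MHC class I genes). It was 18.2% (4 of 22) in immediate early genes, many of which fell. Other motifs were searched too, in genes higher after TBI and in all genes. The PU.1 site was in 6.84% and 3.33%, the cAMP response element in 1.22% and 3.52% and the sterol regulatory element in 1.43% and 1.37%.

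Gbp2 (chr3:142620413-142620662, plus strand): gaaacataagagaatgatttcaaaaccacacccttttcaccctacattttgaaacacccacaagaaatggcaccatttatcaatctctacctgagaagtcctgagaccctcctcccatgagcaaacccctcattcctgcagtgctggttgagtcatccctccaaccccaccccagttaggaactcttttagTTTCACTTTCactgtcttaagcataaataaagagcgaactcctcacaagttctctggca
Ifit3 (chr19:34583279-34583528, plus strand): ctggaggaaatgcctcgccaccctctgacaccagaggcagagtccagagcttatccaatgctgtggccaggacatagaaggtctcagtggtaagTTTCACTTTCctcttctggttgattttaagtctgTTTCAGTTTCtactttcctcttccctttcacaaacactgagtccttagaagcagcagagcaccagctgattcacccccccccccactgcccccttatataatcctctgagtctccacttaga
Bst2 (chr8:71537473-71537722, minus strand): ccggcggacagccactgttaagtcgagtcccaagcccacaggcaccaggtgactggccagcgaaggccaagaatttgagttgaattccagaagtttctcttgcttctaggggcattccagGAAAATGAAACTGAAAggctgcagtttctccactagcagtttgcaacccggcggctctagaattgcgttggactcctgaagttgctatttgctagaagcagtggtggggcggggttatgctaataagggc
Cxcl10 (chr5:92348890-92349139, minus strand): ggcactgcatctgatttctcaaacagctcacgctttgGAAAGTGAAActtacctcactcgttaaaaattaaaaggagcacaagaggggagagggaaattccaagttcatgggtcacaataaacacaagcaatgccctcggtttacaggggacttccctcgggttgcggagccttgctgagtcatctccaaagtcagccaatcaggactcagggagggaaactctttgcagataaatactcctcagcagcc

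The 2 matches of Bst2 overlap and are printed as 1 run of capitals, and the 2 of Ifit3 stand apart. The log2 fold changes of the members shown were 2.04 for Gbp2, a GTPase that interferon gamma induces, 1.58 for Ifit3, an antiviral protein, and 2.07 for Bst2, the membrane protein tetherin.

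Gbp2 had 3.69, 4.12 and 5.08 CPM in sham mice and 8.97, 18.1 and 27.1 CPM in TBI mice (SE 0.23, edgeR, adjusted p = 3.97e-05), with the groups apart. Lgals3bp, a secreted glycoprotein, rose by 2.15 ± 0.22, Ifitm3, which blocks viral entry, by 1.70 ± 0.20, and Parp14, a mono-ADP-ribosyltransferase, by 1.62 ± 0.19, each with the groups apart. The order of the injured mice differed from that in the microglial genes. In the mean log2(CPM + 1) of the interferon list, TBI 1 and TBI 2, both males, lay 1.40 and 1.29 above the sham mean, close to TBI 6 at 1.59 and TBI 7 at 1.33. TBI 5, a female, was the lowest at 0.57, and TBI 4 lay at 0.68. In the list of disease-associated microglia TBI 6 and TBI 7 lay 2.59 and 2.08 above the sham mean, and the other 5 mice 1.02 to 1.34. Cxcl10, which interferons induce and which attracts T cells, had 0 to 0.529 CPM in sham mice, and 14.2, 12.1, 6.35, 4.52, 2.11, 17.4 and 7.95 CPM in TBI 1 to 7. TBI 6 was again the highest and TBI 5 the lowest, and the log2 fold change was 5.11 ± 0.52 (edgeR, adjusted p = 2.31e-05).

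Genes of antigen presentation were also higher. Of 16 MHC class I presentation genes tested 14 rose and 0 fell (median 0.98). B2m, the light chain of class I molecules, had 68.9, 78.7 and 90.9 CPM in sham mice and 139.6, 196 and 292 CPM in TBI mice, a log2 fold change of 1.29 ± 0.14 (edgeR, adjusted p = 2.31e-05). Of 10 MHC class II presentation genes tested 8 rose and 0 fell (median 1.84). H2-Aa, a class II chain, had 1.51, 1.79 and 2.15 CPM in sham mice and 5.33, 10.8 and 30.5 CPM in TBI mice, a log2 fold change of 2.82 ± 0.37 (edgeR, adjusted p = 0.000101). Cd74, the invariant chain that guides class II to the endosome, rose by 2.47 ± 0.31, and Ctss, the protease that cleaves it, by 1.82 ± 0.18.

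Most of the chemokine and cytokine receptor genes tested rose, many of them from low levels. Of 11 chemokine genes tested, of 25 in the list, 8 were higher and 1 lower. Cxcl5, which attracts neutrophils, had 0.106, 0.215 and 0.502 CPM in sham mice and 1.72, 6.33 and 41.7 CPM in TBI mice. TBI 6 and TBI 7 (39.7 CPM) were far above the other injured mice, at 1.72 to 10.3 CPM, and the log2 fold change was 5.54 ± 0.92 (edgeR, adjusted p = 0.000594). Cx3cl1, the ligand of Cx3cr1, fell by 0.28 on the log2 scale (SE 0.06, edgeR, adjusted p = 0.00336), from a median of 913 CPM in sham mice to 767 CPM in TBI mice, and the groups overlapped at the edge. Without the 4 mice with choroid plexus genes its log2 fold change was −0.24, and its call was lost (edgeR, adjusted p = 0.0559). Of 26 genes of cytokines and their receptors tested 21 were higher and 0 lower (median 0.82). Osmr, the oncostatin M receptor, rose by 1.93 ± 0.25, Tnfrsf1a, a receptor of tumour necrosis factor, by 1.34 ± 0.17 and Ifngr1, a chain of the interferon gamma receptor, by 0.77 ± 0.11. In the inflammasome list 8 of 11 genes tested rose, among them the adaptor Pycard (1.38 ± 0.26) and the pore-forming protein Gsdmd (1.26 ± 0.20).

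Genes of reactive astrocytes rose with the microglial ones. Of 29 genes tested 22 were higher and 0 lower, with a median log2 fold change of 1.35. Gfap, the astrocytic intermediate filament, had 215, 268 and 305 CPM in sham mice and 735, 1181 and 2214 CPM in TBI mice, a log2 fold change of 2.35 ± 0.18 (edgeR, adjusted p = 1.61e-06). Vim, another filament, had 22.6, 30.9 and 35.6 CPM in sham mice and 102, 112 and 346 CPM in TBI mice (log2 fold change 2.42 ± 0.27). The groups were apart in both, and in Vim 5 of the injured mice lay within 102 to 116 CPM, with TBI 7 at 245 CPM and TBI 6 above it. Lcn2, which binds bacterial siderophores, had 0 to 0.932 CPM in sham mice and 15.1 to 26.7 CPM in 5 TBI mice, with 199 in TBI 7 and 308 CPM in TBI 6. Steap4, a metalloreductase, had 0.336 to 1.04 CPM in sham mice and 9.18 to 16.2 CPM in 5 TBI mice, with 64.0 in TBI 7 and 132 CPM in TBI 6. C3, Lcn2, Steap4, Tgm1, a transglutaminase, and Cxcl5 thus shared 2 mice far above the rest. Genes of homeostatic astrocytes rose by less, with 10 of 16 higher and a median of 0.20. Aqp4, the water channel of astrocyte end-feet, rose by 0.94 ± 0.15 and Gja1, the gap junction protein connexin 43, by 0.49 ± 0.07. Without the 4 mice with choroid plexus genes, 17 of the former and 5 of the latter were higher.

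**Figure D2:**
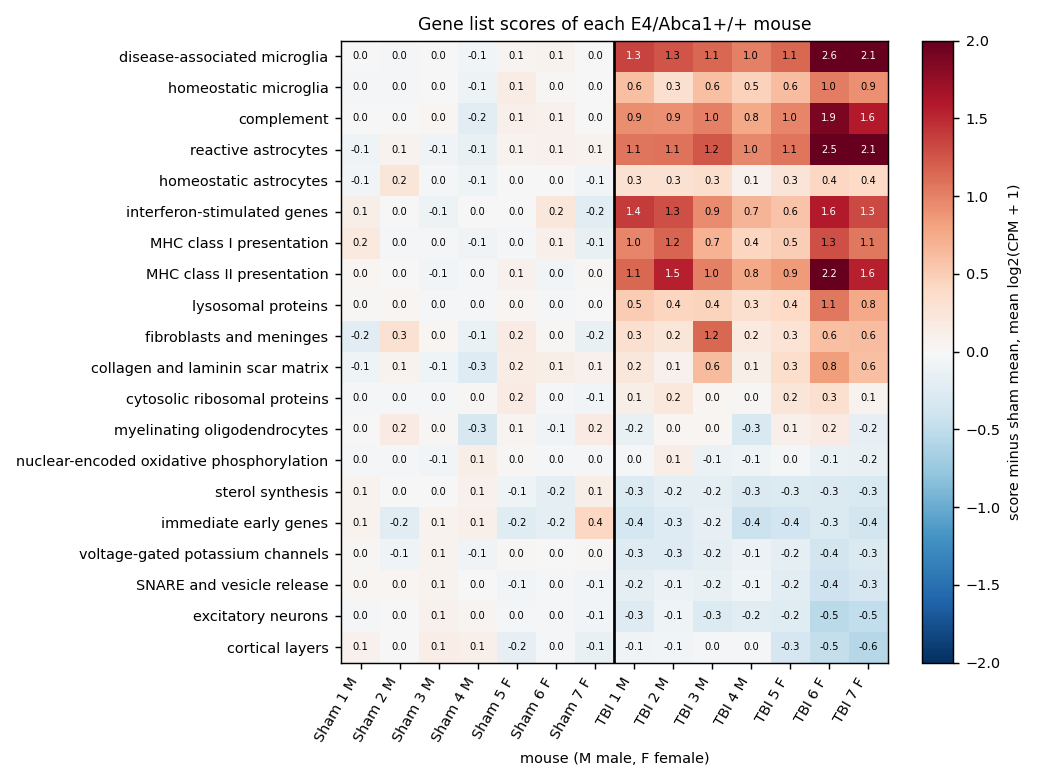
Score of 20 gene lists in each mouse (columns, M males and F females), as the mean log2(CPM + 1) of the tested genes minus the sham mean (number, and colour, which is cut at 2 and −2). TBI 6 and TBI 7 have the highest scores in disease-associated microglia (2.59 and 2.08), while TBI 1 (1.40) and TBI 2 (1.29) come near them in interferon-stimulated genes.

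Most lysosomal genes rose, by amounts smaller than those of the immune genes. Of 45 genes tested 26 were higher and 0 lower (median 0.43), with every TBI mouse above every sham mouse in 22. Laptm5, a lysosomal membrane protein of leukocytes, rose by 1.39 ± 0.18. Of 20 genes of iron and heme handling 9 were higher and 1 lower. Slc11a1, which pumps metal ions out of the phagosome, rose by 2.20 ± 0.25. Tfrc, the transferrin receptor, went the other way and fell by 0.49 on the log2 scale (SE 0.08), from 111 to 134 CPM in sham mice to 70.7 to 104 CPM in TBI mice, with the groups apart.

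Many genes of cholesterol export rose, and many of sterol synthesis fell. Abca1, the exporter that loads lipid on APOE and whose copies differ between other groups of the study, had 33.2, 48.6 and 51.4 CPM in sham mice and 97.7, 120.3 and 293 CPM in TBI mice. Its log2 fold change was 1.77 ± 0.22 (edgeR, adjusted p = 9.04e-05), and TBI 6 was the highest injured mouse, followed by TBI 7 at 217 CPM. Of 24 genes of cholesterol efflux and the LXR pathway 14 were higher and 0 lower (median 0.34), among them Apod, a lipocalin (1.01 ± 0.15), and Srebf1, a transcription factor that LXR induces (0.75 ± 0.12). Reads on the annotated mouse Apoe gene, whose coding part was replaced in these mice, gave 18.8 ± 2.50 CPM in sham mice (SD, n = 7) and 22.5 ± 2.14 CPM in TBI mice. The log2 fold change of 0.26 did not pass the test (edgeR, adjusted p = 0.0650). Of 25 sterol synthesis genes tested 15 fell and 0 rose (median −0.30), against 4.87% lower among all genes tested. Srebf2, the transcription factor of the pathway, had 241, 260.2 and 264 CPM in sham mice and 188, 210.5 and 231 CPM in TBI mice, a log2 fold change of −0.28 ± 0.05 (edgeR, adjusted p = 0.000541). The groups were apart. Cyp51, a demethylase, fell by 0.41 on the log2 scale and Hmgcs1, an early enzyme, by 0.39. The TBI mice lay close together in the sterol synthesis score, −0.30 to −0.18 from the sham mean. Without the 4 mice with choroid plexus genes 11 genes of cholesterol efflux were higher and 10 of sterol synthesis lower.

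Receptors of APOE changed in both directions. Of 15 genes of the APOE and LDL receptor family 3 rose, Lrp5 by 0.63 ± 0.14, Lrp10 by 0.49 ± 0.11 and Lrp4 by 0.30 ± 0.08. In the other direction 2 fell, and 1 without Sham 1 or Sham 7, among them Sorl1, a sorting receptor, by 0.39 on the log2 scale (SE 0.10). Of 19 genes tied to Alzheimer's disease risk 13 rose, Trem2, Spi1 and Clu among them, and Sorl1 was the 1 that fell. Without the 4 mice with choroid plexus genes 0 genes of either list were lower, and Sorl1 had an adjusted p of 0.0845 (edgeR) and Lrp4 0.0507. With libraries thinned to equal depth Lrp4 had an adjusted p of 0.0501 (edgeR). Cd33, an inhibitory sialic acid receptor of microglia, rose by 1.21 ± 0.16.

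Part of the matrix genes rose. Of 34 collagen, laminin and related genes 15 were higher and 0 lower (median 0.49), and the groups were apart in 0. Of 12 fibroblast and meningeal genes 6 were higher, and 3 were without Sham 1 or Sham 4. Col1a1, a fibrillar collagen, had 8.22, 14.0 and 21.0 CPM in sham mice and 16.3, 21.3 and 41.1 CPM in TBI mice, a log2 fold change of 0.85 ± 0.21 (edgeR, adjusted p = 0.0131), and its highest injured mouse was TBI 3. Without the 4 mice with choroid plexus genes its log2 fold change was 0.89, and its call was lost (edgeR, adjusted p = 0.0536). The call was also lost in a single fit over the 58 mice (edgeR, adjusted p = 0.0625). The fibroblast score of TBI 3 was 5.89, against 4.93 in the lowest TBI mouse and 4.50 to 5.04 in sham mice, and this mouse stood above the others of its group. Without the 4 mice with choroid plexus genes 4 matrix genes and 1 fibroblast gene were higher. Of 18 genes of matrix metalloproteinases and their inhibitors 7 were higher, and 3 without the 4 mice. Timp1, an inhibitor of matrix proteases, rose by 3.68 ± 0.67, from 0.0731 to 1.19 CPM in sham mice to 1.76 to 20.6 CPM in TBI mice, and Mmp14, a membrane-bound protease, by 0.75 ± 0.13. Among annexins and S100 proteins, which bind calcium and membranes, 13 of 16 rose, among them S100a6 (1.25 ± 0.20) and Anxa2 (1.09 ± 0.20).

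Perineuronal net genes were mixed, with 3 of 15 lower and 2 higher. Acan, which encodes aggrecan, the main proteoglycan of the nets, had 3.95, 5.60 and 7.46 CPM in sham mice and 2.43, 3.22 and 3.86 CPM in TBI mice, a log2 fold change of −0.80 ± 0.17 (edgeR, adjusted p = 0.00460), with the groups apart. Its call was lost without the 4 mice with choroid plexus genes (edgeR, adjusted p = 0.0669) and with libraries thinned to equal depth (adjusted p = 0.0546). The higher genes were Cd44, a hyaluronan receptor of glia and leukocytes (2.07 ± 0.29), and Ptprz1, a receptor phosphatase of glia (0.29 ± 0.08), and the call of the latter was lost without TBI 3 (edgeR, adjusted p = 0.0568) or TBI 6 (adjusted p = 0.0574) and without the 4 mice (adjusted p = 0.211).

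Endothelial genes rose at about the share of all genes tested. Of 20 endothelial genes tested 2 were higher (10%, against 8.82% of all genes), and 0 were lower. The 2 were Icam1 (2.06 ± 0.32) and Vcam1 (0.93 ± 0.18), which tether leukocytes. Cdh5, the endothelial cadherin, had a log2 fold change of 0.23 that did not pass (edgeR, adjusted p = 0.112). Of 9 pericyte and smooth muscle genes 0 were called by edgeR's quasi-likelihood test and 0 by DESeq2's Wald test, and 2 had an unadjusted p under 0.05, with Pdgfrb, the receptor that marks pericytes, at 0.23 (edgeR, adjusted p = 0.168).

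Many genes of neurons fell, by small amounts. Of 30 genes of SNARE proteins and vesicle release 13 fell and 0 rose (median −0.17). Snap25, a SNARE protein of the nerve terminal, had 3072, 3141 and 3511 CPM in sham mice and 2199, 2545 and 2769 CPM in TBI mice, a log2 fold change of −0.37 ± 0.05 (edgeR, adjusted p = 0.000249). Rph3a, a vesicle protein that binds Rab3, had 406, 437 and 504 CPM in sham mice and 261, 297 and 338 CPM in TBI mice, a log2 fold change of −0.57 ± 0.06, and the smallest p of the lower genes (edgeR, adjusted p = 2.31e-05). The groups were apart in both, and they were apart too in others of the 10 lower genes with the smallest p-values, such as Luzp1 (−0.41), Pdp1, a mitochondrial phosphatase (−0.50), Diras2, a small GTPase (−0.47), and Lynx1, a modulator of nicotinic receptors (−0.39). Of 13 excitatory neuron genes 4 fell, and 7 did without TBI 4. Nefm, a neurofilament chain, had 149.5, 184 and 202 CPM in sham mice and 104, 118 and 144 CPM in TBI mice, a log2 fold change of −0.54 ± 0.07.

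Ion channels and receptors fell in part. Of 44 potassium channel genes 18 fell and 0 rose (median −0.21), and of 27 sodium and calcium channel genes 7 fell and 0 rose (median −0.14). Kcna1, an axonal channel, fell by 0.35 on the log2 scale. Scn4b, a sodium channel beta subunit, had 52.7, 71.6 and 90.7 CPM in sham mice and 21.9, 29.0 and 59.9 CPM in TBI mice. Its log2 fold change was −1.17 ± 0.17 (edgeR, adjusted p = 0.000218), 6 TBI mice lay at 21.9 to 30.6 CPM, and TBI 2, the highest, lay within the sham range. Scn1a, the main sodium channel of fast-spiking interneurons, fell by 0.63 (SE 0.10), with the groups apart. Of 15 genes of GABA-A receptors 4 fell, and 7 did without TBI 4, with Gabrd, the subunit of extrasynaptic receptors, at −0.47 ± 0.07. Of 18 AMPA and NMDA receptor genes 2 fell (median −0.15), and 1 without each of Sham 1, Sham 3, Sham 4, Sham 6, Sham 7, TBI 5 and TBI 6. Without the 4 mice with choroid plexus genes, 4 vesicle release genes, 9 potassium channel genes, 4 sodium and calcium channel genes, 1 GABA-A receptor gene, 0 AMPA and NMDA receptor genes and 2 excitatory neuron genes were lower.

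**Figure D3:**
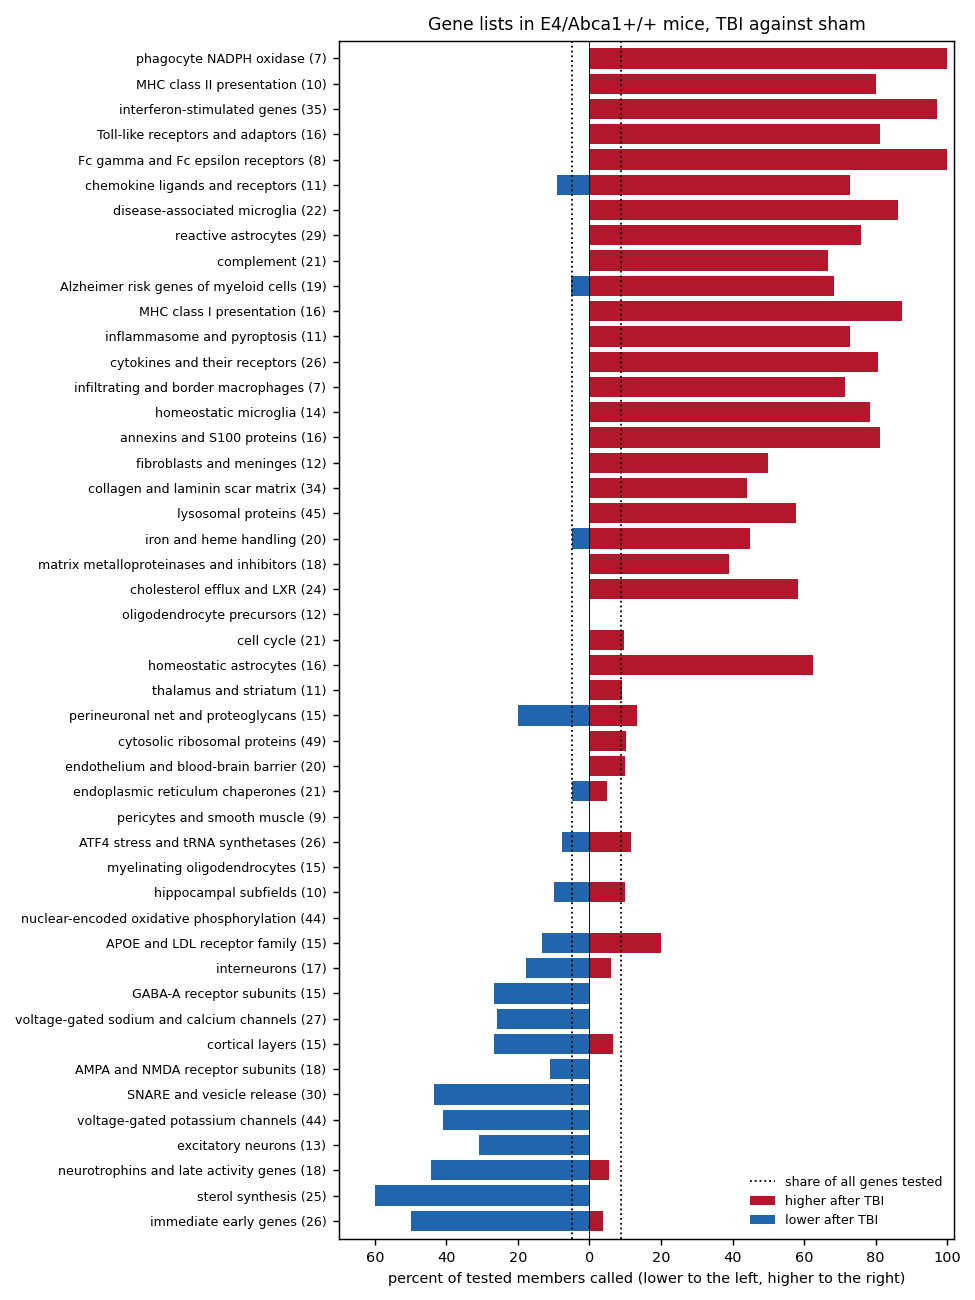
Percent of the tested genes of each list (number in brackets) that were higher (red, to the right) or lower (blue, to the left) after TBI, in order of the median log2 fold change; dotted lines mark 8.82% and 4.87%, the shares of all genes tested. Immune lists such as phagocyte NADPH oxidase (1.85) lie at the top, and sterol synthesis (−0.30) and immediate early genes (−0.43) at the bottom.

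Markers of neuron classes and layers changed unevenly. Of 17 interneuron genes 3 fell and 1 rose. Npy, a peptide of interneurons, fell by 0.47 on the log2 scale (SE 0.11), Gad1, which makes GABA, by 0.28 and Pvalb, the calcium buffer of fast-spiking cells, by 0.50, while Nos1, the neuronal nitric oxide synthase, rose by 0.43 ± 0.10. Without the 4 mice with choroid plexus genes the calls of Nos1 (edgeR, adjusted p = 0.0524) and Pvalb (adjusted p = 0.0690) were lost. Of 15 cortical layer genes 4 fell and 1 rose, and 4 and 0 without those mice. Lamp5, a membrane protein of superficial cortical cells, had 123, 144 and 176 CPM in sham mice and 67.7, 89.2 and 99.1 CPM in TBI mice, a log2 fold change of −0.79 ± 0.09 (edgeR, adjusted p = 4.01e-05), with the groups apart. Of 10 hippocampal genes tested, Dsp, a desmosomal protein of dentate granule cells, fell by 0.97 (SE 0.22) and Wfs1, a CA1 marker, rose by 0.47 ± 0.11, and 3 of the list fell without TBI 5. Dsp had 17.9 to 27.5 CPM in sham mice and 4.30 to 18.4 CPM in TBI mice, and the 3 injured females, at 13.7 to 18.4 CPM, were above the 4 injured males. The 3 sham females, at 23.9 to 27.5 CPM, were above the 4 sham males too. Of 11 thalamic and striatal genes Prkcd, a kinase that other cells also express, was the 1 that rose, by 1.14 ± 0.16. The shares higher were 5.88% of interneuron, 6.67% of cortical layer, 10% of hippocampal and 9.09% of thalamic and striatal genes. These lie near the 8.82% of all genes tested. The shares lower were 17.65%, 26.67%, 10% and 0% in the same order, against 4.87% of all genes tested.

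Many genes tied to neuronal activity fell. Of 26 immediate early genes, which neurons switch on quickly when they fire, 13 fell and 1 rose (median −0.43). Arc, a protein of active synapses, had 178, 256 and 455 CPM in sham mice and 106, 124 and 181 CPM in TBI mice, a log2 fold change of −1.11 ± 0.17 (edgeR, adjusted p = 0.000339), and the lowest sham mouse was just below the highest injured one. Egr3, a transcription factor, fell by 0.67 on the log2 scale (SE 0.10), with the groups apart, Nr4a1, a nuclear receptor, by 0.84 (SE 0.15) and Npas4, a factor specific to neurons, by 0.98 (SE 0.25), with an adjusted p of 0.0546 in a single fit over the 58 mice (edgeR). Atf3, which stressed cells and injured neurons express, was the member that rose, by 1.99 ± 0.46, from 0.595 to 2.22 CPM in sham mice to 1.62 to 12.2 CPM in TBI mice. Sham mice differed in these genes, with list scores of 5.00 to 5.67, against 4.82 to 5.08 in TBI mice. Of 18 genes of neurotrophins and late activity 8 fell and 1 rose, and 5 fell without Sham 3 or TBI 1 and 3 without the 4 mice with choroid plexus genes. Vgf, a neuropeptide precursor, fell by 0.41, Scg2, a granin, by 0.36 and Pcsk1, a prohormone convertase, by 0.48 on the log2 scale, where the calls of Vgf (edgeR, adjusted p = 0.0540) and Pcsk1 (adjusted p = 0.0578) were lost without those 4 mice, and Ntrk2, the BDNF receptor that astrocytes also express, rose by 0.35 ± 0.06.

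**Figure D4:**
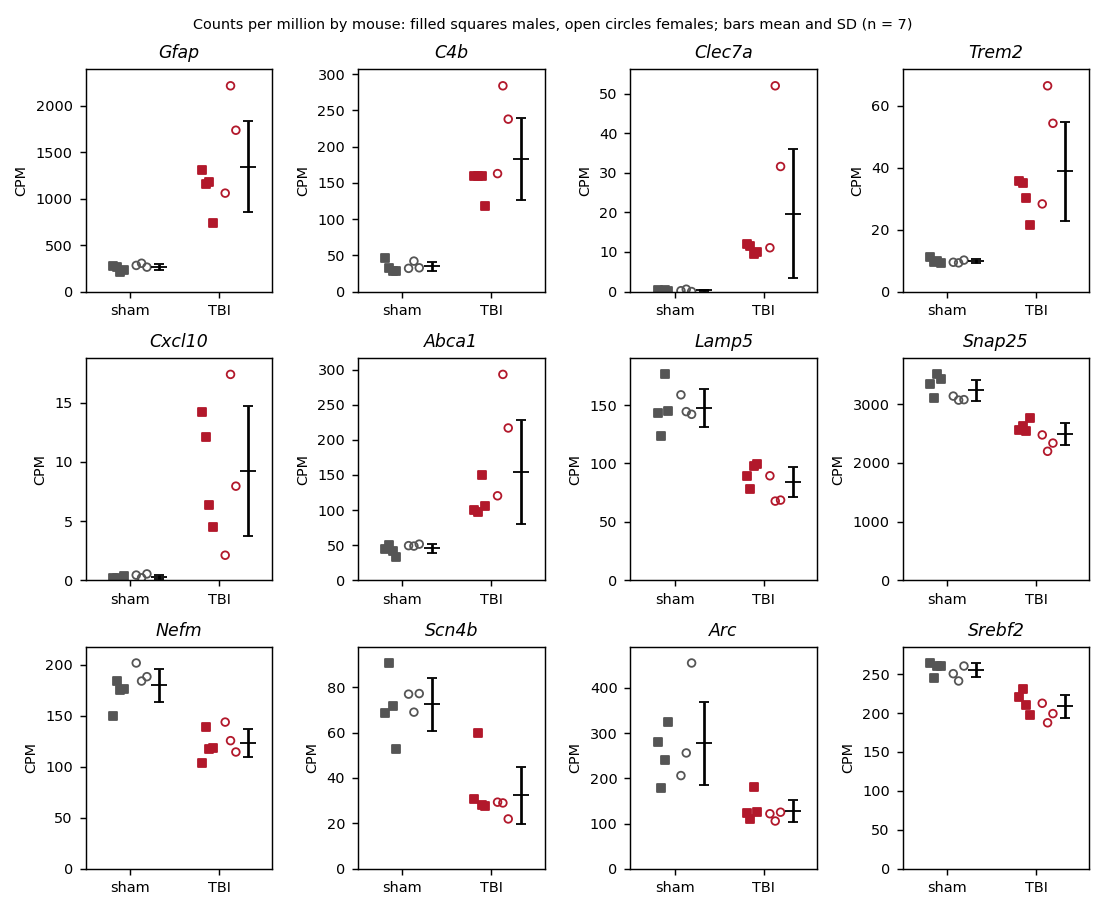
CPM (vertical axis) of 12 genes in each sham (grey) and TBI (red) mouse, with the mean and SD of 7 mice beside them; filled squares are males and open circles females. Gfap, C4b, Clec7a, Trem2, Cxcl10 and Abca1 are higher in TBI mice with no overlap, such as Trem2 at 21.6 to 66.4 against 9.06 to 11.2 CPM, and Lamp5, Snap25, Nefm, Scn4b, Arc and Srebf2 are lower.

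Several gene groups held no calls by edgeR's quasi-likelihood test, or shares near those of all genes tested (8.82% higher and 4.87% lower). The shares higher were 10.2% of ribosomal protein, 9.52% of cell cycle, 11.5% of ATF4 and 4.76% of chaperone genes. The shares lower were 7.69% of ATF4 and 4.76% of chaperone genes. Of 15 genes of myelinating oligodendrocytes, 12 of their precursors and 44 of oxidative phosphorylation, 0 were called by edgeR's quasi-likelihood test in each, where 2, 2 and 6 had an unadjusted p under 0.05 and DESeq2's Wald test called 1, 0 and 0. Mal, a myelin protein, had a log2 fold change of −0.24 (edgeR, adjusted p = 0.0571), Olig1, a factor of the lineage, 0.27 (adjusted p = 0.170) and Ndufs1, a subunit of complex I, −0.11 (adjusted p = 0.0908). Of 49 ribosomal protein genes 5 were higher (median 0.14), 11 without TBI 4, 3 without each of Sham 2, Sham 3, Sham 7, TBI 1, TBI 2, TBI 6 and TBI 7, and 1 without the 4 mice with choroid plexus genes. Of 21 chaperones of the endoplasmic reticulum 1 rose and 1 fell, and of 26 genes of the ATF4 stress response and tRNA synthetases 3 rose and 2 fell. Both chaperone calls and the 2 falls of the ATF4 list were lost or reduced when single mice were left out, the 3 rises of that list were not, and without the 4 mice with choroid plexus genes 0 genes of either list were called by edgeR. Of 21 cell cycle genes 2 were higher, Rrm2, which supplies nucleotides for replication, and Cdk2, a kinase of the cell cycle. There were 5 without TBI 4, 1 without each of Sham 1, Sham 2, Sham 6, TBI 3 and TBI 5, and 0 without each of Sham 3, Sham 4, TBI 1, TBI 7 and the 4 mice with choroid plexus genes together. Top2a, which dividing cells express, had a log2 fold change of 1.25 ± 0.41 that did not pass (edgeR, adjusted p = 0.0517).

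Markers of blood cells were mostly at or below the filter. Of 12 neutrophil genes 2 were tested, and Csf3r, which microglia also express, rose by 1.81 ± 0.22. Mmp9, the other, had a log2 fold change of 0.33 that did not pass (edgeR, adjusted p = 0.3485). Of 14 T and NK cell genes 2 were tested, of which Trbc2, a constant segment of the T cell receptor, fell by 0.90 (SE 0.21). Its call was lost without the 4 mice with choroid plexus genes (edgeR, adjusted p = 0.0711) and with libraries thinned to equal depth (adjusted p = 0.1665). Lck, a kinase of T cells, had a log2 fold change of 0.45 that did not pass (edgeR, adjusted p = 0.329). Summed CPM of the 4 neutrophil genes listed was 5.87 to 9.89 in sham mice and 15.1 to 50.7 in TBI mice. Csf3r alone gave 3.52 to 7.53 CPM of this sum in sham mice and 12.6 to 35.0 CPM in TBI mice. Summed CPM of the T and NK cell genes was 3.78 to 7.21 and 3.87 to 10.3. Of 8 B cell genes 0 passed the filter, and summed CPM of the 3 red blood cell genes listed was 0.861 to 10.5 in sham mice and 0.472 to 4.26 in TBI mice.

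The filter on low counts left out 1130 genes, of which a fit without it called 166 higher and 7 lower. Among the list members left out, Cxcl9, a chemokine that interferon gamma induces, had 3 and 68 counts summed over the sham and the TBI mice, Ccl2, which attracts monocytes, 2 and 97, and Cd5l, a macrophage protein, 2 and 304. Cd8a, the T cell coreceptor, had 1 and 34 counts, and Ms4a7, a marker of border macrophages, 16 and 158. Among the other T cell members left out, Cd4 had 35 and 49 counts and Cd28 15 and 35, and neither was called without the filter. In the macrophage list Pf4 (41 and 82) and Ly6c2 (8 and 27) were not called either, while Ccr2 and Plac8 were. In the B cell list Jchain (22 and 80) was called higher and Sdc1 (37 and 49) was not called. In the neutrophil list S100a8 (7 and 73) was called higher and S100a9 (16 and 91) was not called. These genes were chosen after their values were seen.

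The response was larger in females in most called genes, and the difference between the sexes was called for none. In separate fits 509 genes were higher (3.54%) and 113 lower (0.787%) in males (4 against 4), 622 in all (4.33%), and 1109 were higher (7.87%) and 733 lower (5.20%) in females (3 against 3), 1842 in all (13.1%). Of the 1238 genes higher over the 14 mice, 1079 (87.2%) had a larger change in females, with a median difference of 0.27 on the log2 scale, and of the 684 lower genes 558 (81.6%), with a median difference of −0.10. These are the mice that chose the genes, so the shares are a description. The injury by sex interaction was called for 0 of 14596 genes by edgeR's quasi-likelihood test, with a smallest adjusted p of 0.776, and for 0 genes by DESeq2's Wald test. Before adjustment, 891 of the genes (6.10%) were under 0.05 in edgeR. That no gene passed does not show that the sexes responded alike. Cd44 had a log2 fold change of 1.35 in males and 3.31 in females, while Lag3 (2.38 and 1.73) and Cxcl10 (5.58 and 4.54) had the larger value in males. The median over interferon-stimulated genes was 1.41 in males and 1.63 in females, and over disease-associated microglia 1.09 and 1.85.

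The counts of single sexes rested on few mice. In females the higher genes numbered 597 without Sham 6, 623 without Sham 7, 1716 without TBI 5 and 529 without TBI 7, and the lower genes 279, 349, 1183 and 246 in the same order, and 469 without TBI 6. In males the higher genes numbered 767 without TBI 4, and the lower genes 48 without Sham 1, 42 without Sham 3, 65 without Sham 4, 39 without TBI 1, 61 without TBI 3 and 237 without TBI 4. The 3 injured females include TBI 6 and TBI 7, and the 4 injured males include TBI 4, the mice at either end of the response. Males have the lower and females the higher mouse numbers in the labels, so sex and range of mouse numbers cannot be told apart.

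**Figure D5:**
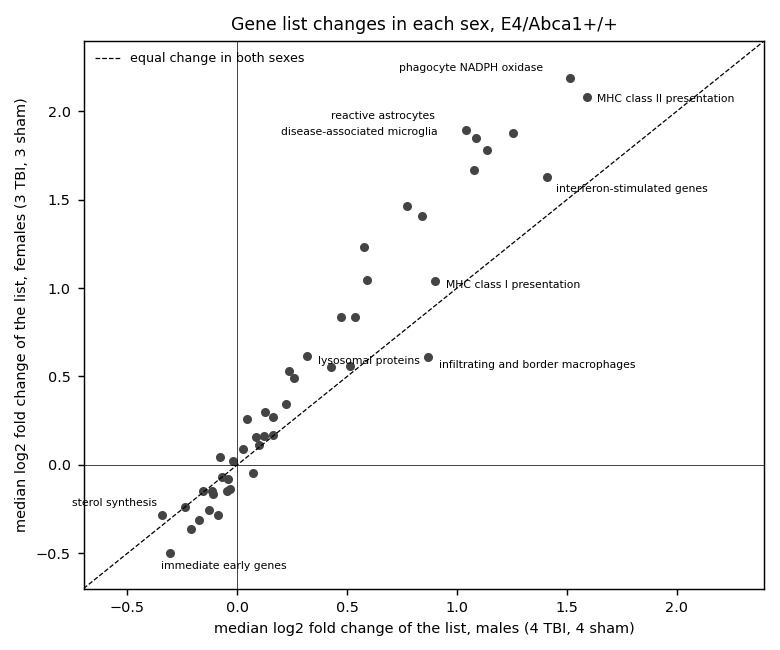
Median log2 fold change of each gene list in females (vertical axis, 3 TBI and 3 sham mice) against males (horizontal axis, 4 and 4), with the line of equal change dashed and some of the lists named. Disease-associated microglia lie above the line, at 1.85 in females and 1.09 in males, and MHC class I presentation (1.04 and 0.90) lies closer to it.

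The response was set beside those of the genotypes that share its Abca1 copies or its isoform, each with its own sham mice. In E3/Abca1+/+ mice 3266 of 14093 genes were called (23.2%), 12.3% higher and 10.9% lower, and in E4/Abca1+/- mice 5140 of 15083 (34.1%), 17.7% higher and 16.4% lower. The groups differed in size and depth, with 8 TBI and 8 sham mice in E3/Abca1+/+ and 8 and 7 in E4/Abca1+/-, and median totals of 7829193 and 9405273 counts in the former and of 15116303 and 20511272 in the latter, against 6835372 and 9715595 here. The counts of calls are therefore not a comparison of the responses. Of the genes higher here with a value there, 1228 of 1233 had the same sign among E3/Abca1+/+ mice and 1235 of 1238 among E4/Abca1+/- mice, and of the lower genes 674 of 683 and 680 of 684. The E3/Abca1+/+ fit also called 84.0% of the higher and 78.4% of the lower genes, in the same direction, and the E4/Abca1+/- fit 90.3% and 83.9%. The median over disease-associated microglia was 1.57 for E3/Abca1+/+ and 1.95 for E4/Abca1+/-, over interferon-stimulated genes 1.58 and 1.77, and over sterol synthesis genes −0.31 and −0.37. The isoform by injury interaction was called for 0 of 14505 genes (edgeR, smallest adjusted p = 1.00, 306 or 2.11% at an unadjusted p under 0.05), and the Abca1 copies by injury interaction for 0 of 15124 genes (edgeR, smallest adjusted p = 0.950, 733 or 4.85% at an unadjusted p under 0.05). DESeq2's Wald test also called 0 genes in each. That no gene passed does not show that the genotypes responded alike. The median over MHC class I presentation genes was 0.98 here and 1.52 for E4/Abca1+/-. In the Abca1 interaction 0 of these 16 genes had the higher log2 fold change here, and 6 had an unadjusted p under 0.05 (edgeR). It was higher here in 3 of 35 interferon-stimulated and 5 of 22 disease-associated microglia genes. These lists were picked after their values were seen. The change of Abca1 in E4/Abca1+/+ mice was −0.04 ± 0.28 from that in E3/Abca1+/+ mice and −0.17 ± 0.29 from that in E4/Abca1+/- mice on the log2 scale.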

How the data were processed

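RNA-seq of hippocampus and cortex covered 58 mice, of which the 14 E4/Abca1+/+ mice were analysed. The authors deposited 1 table of raw read counts per gene, without normalization, made with featureCounts of Subread 1.5.0 on mm10 per the processing notes. It lists 15171 genes, 2 blank lines were removed, 23 symbols turned into dates were restored from gene identifiers, and 0 columns were left unused. Counts were scaled with TMM factors, filtered with filterByExpr and compared with edgeR 4.0.16 (R 4.3.3, limma 3.58.1) by the quasi-likelihood test without covariates, with Benjamini-Hochberg adjustment over all genes tested. Fits of 1 sex held the mice of that sex, and each interaction was fitted on the groups concerned. Errors of log2 fold changes are approximate standard errors, the absolute log2 fold change divided by the square root of the quasi-likelihood F value. This measure can fail for very small changes. Gene list scores were means of log2(CPM + 1). Promoters came from RefSeq (GRCm38.p6). The tests of injury, sex and isoform were checked on simulated data.

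Each library is a separate mouse, and in none of 42 pairs of libraries of 1 group were the counts the same. The members, gene lists and tests were chosen with earlier results of these data known. Genes were named by rule, as the 4 members of each list with the smallest p, members called against their list's direction, the 10 genes with the smallest p and the 5 with the largest change (mean of at least 1 CPM) in each direction, Abca1, Apoe and the genes whose promoter is printed, and a selection of these is given.

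The alternatives replaced TMM by DESeq2's size factors, the quasi-likelihood test by the Wald test of DESeq2 1.42.0 or by edgeR's exact test, and the filter by none or by 1 CPM in 7 mice. Others took sex as a covariate, fitted all 58 mice at once, thinned the libraries to equal depth, or left out each mouse in turn. A covariate for depth class, the fits of shallow or of deep libraries only and the fit without 4 mice with choroid plexus genes were chosen after seeing the data. Floors cover counting error only. Some genes are not reported here.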

Additional observations from a re-analysis of the deposited data

Results flagged for a closer look

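Some mice lay far from the other 6 of their group in a list score (mean log2(CPM + 1)) or a library measure, measured as the gap to the nearest mouse as a share of the group's range (Dixon's test, critical value 0.568 for 7 mice). This held for 9 of 108 groups tested, and chance flags about 1 in 20. TBI 2 was highest in the interneuron score (5.44, next 5.24) and in that of oxidative phosphorylation (6.63, next 6.45). Sham 4 was highest in oxidative phosphorylation (6.61, next 6.50) and lowest in complement (3.44, next 3.63), GABA-A receptor subunits (7.03, next 7.12) and the APOE and LDL receptor family (6.56, next 6.66). Sham 2 was highest in homeostatic astrocytes (7.99, next 7.75), and Sham 5 in ribosomal proteins (4.73, next 4.58). In TBI 3 the 10 most abundant genes took 5.11% of the counts, against at most 4.61% in the other TBI mice.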

How the results depend on the processing

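The counts of 1238 higher and 684 lower genes stayed within 1.5 times under the other normalization, tests and filters. A sex covariate gave 1041 lower genes. Libraries over 8000000 counts gave 339 higher and 38 lower genes, those under it 293 and 129, and the fit without the 4 mice with choroid plexus genes 751 and 189, in fits with fewer mice. Leaving out 1 mouse at a time gave 1011 to 1550 higher and 433 to 1033 lower genes, 497 to 665 genes with every TBI mouse above every sham mouse and 140 to 369 with every TBI mouse below. In males these ranges were 354 to 767 higher and 39 to 237 lower genes, with 180 lower by DESeq2's Wald test, and in females 529 to 1716 and 246 to 1183. Where no fewer mice or genes entered, the cause was not tested. The 3 interactions called 0 genes under each alternative run. Of 164 named genes called, 64 were called under all 26 alternatives that gave a value, and 0 changed sign. At equal depth 145 of the 155 with a value were still called, without the 4 mice with choroid plexus genes 126 of 163, in libraries over 8000000 counts 86 of 164 and in those under it 90 of 163. No paired analysis was possible because the labels carry mouse numbers and no replicate numbers that pair TBI with sham mice.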
